A study of Mus musculus with 11 samples.

Results

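The genes described here are 38 lysosomal genes, namely hydrolases that work inside the lysosome, proteins of its membrane and Tfeb, a transcription factor of lysosomal genes. They were chosen by name, with earlier results of these data known, so the choice is not independent of the values. All 38 were found among the 53453 rows of a table of transcript levels. That table comes from RNA sequencing of primary neurospheres, which are clumps of neural stem and precursor cells that grow in suspension, made from the brains of mouse embryos at stage E15.5. Of the 11 libraries, 5 came from embryos with Klf5 overexpression and 6 from control embryos whose treatment is labelled as none. The strain, the sex, the litters, the means of Klf5 overexpression and the cells it was driven in: none of this is given in the sources used here. The labels count 6 and 5 embryos, so 1 library per embryo.

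Lysosomes are acidic compartments in which proteins, sugar chains, sulfated glycans and lipids are broken down. Most of their soluble enzymes are made in the endoplasmic reticulum and are carried to the lysosome by receptors that recognise a sugar tag, while heavily glycosylated membrane proteins such as LAMP1 and LAMP2 line the compartment. TFEB and its relatives TFE3, MITF and TFEC are basic helix-loop-helix factors that bind an E-box type sequence, the CLEAR element, in promoters of many lysosomal genes. TFEB is controlled largely after translation: when amino acids are plentiful, mTORC1 at the lysosomal surface phosphorylates it and keeps it out of the nucleus. Inherited loss of many of these enzymes and membrane proteins causes storage disorders that damage the brain.

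Transcript levels are in TPM, a unit corrected for the length of a gene's transcripts and for the size of the library, so levels of different genes can be compared. Sequencing depth is unknown, and the listed rows summed to 730832 to 821967 TPM in the overexpression libraries and to 814208 to 846780 TPM in controls. Overexpression libraries 2 to 5 lay below every control in this sum, and library 5 was the lowest. The part of this difference in the results that change with rescaling was not tested. Klf5 checked the labels, with 53.6 to 93.02 TPM in the overexpression libraries and 0.371 to 1.29 TPM in controls. Progenitor markers were abundant, with Sox2 at 317 to 445 TPM in controls and 287 to 411 TPM with overexpression. Microglia, macrophages and endothelium were barely represented. The summed level of 14 microglia and macrophage genes was 0.528 to 3.14 TPM in controls and 0.809 to 3.32 TPM with overexpression, and Aif1, Cx3cr1, the 3 C1q genes and Tyrobp were listed at 0 in every library. Cd68 and Ctss of that list are lysosomal and stand in the further lists as well. Of 8 progenitor markers 6 lay below 0, with a median log2 fold change of -0.36; Vim was called as higher and Slc1a3 and Msi1 as lower. Of 5 tested astrocyte markers S100b was called as higher (log2 fold change 2.19 ± 0.30 (SE)) and Aldh1l1 as lower (-2.04 ± 0.30 (SE)), and the summed level of all 6 had a median of 175 TPM in controls and 104 TPM with overexpression. Over all tested genes 3.72% were called, by an adjusted limma p under 0.05, and 42.4% had a log2 fold change above 0. The 7 neuronal markers, none of them called, had a median of -0.38 and were all below 0; the part of such differences in the lysosomal values was not tested. In such bulk libraries, fewer cells of a type and less RNA per cell cannot be told apart.

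Of the 38 lysosomal genes, Tfeb alone passed the test. It was 5.53-fold higher in mean TPM with Klf5 overexpression. The other 37 genes had log2 fold changes between -0.44 (Smpd1) and 0.45 (Ctsf). All 38 passed the filter on low values, which asks for at least 1 TPM in at least 5 libraries. The 1 called gene of 38 makes 2.63%. Over all 13549 tested genes 3.72% were called in either direction, 2.29% as higher and 1.43% as lower. In this fit the share of the list that was called is therefore close to that of all genes. After rescaling or weighting of the libraries, as given below, the share of the list was larger than that of all genes, a difference that was not tested. The median log2 fold change was 0.02 for the 38 genes and -0.04 for all tested genes. Its sign for the 38 genes rests on single libraries: it was -0.07 without control library 1, -0.05 without overexpression library 4, -0.04 without overexpression library 1 and -0.01 without control library 5. The median of all tested genes also moved down in these fits, to -0.07, -0.07, -0.09 and -0.07 in the same order, so the shift is not particular to the list. An adjusted p under 0.05 in limma, adjusted over all tested genes by the Benjamini-Hochberg method, is what is meant by called.

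Tfeb (ENSMUSG00000023990, chromosome 17, 47737030 to 47792419, plus strand, GRCm38) had 11.4, 9.53, 7.89, 10.2 and 5.65 TPM in overexpression libraries 1 to 5. It had 0.448 to 2.97 TPM across the 6 control libraries, with a median of 1.42 TPM. The groups did not overlap: the lowest overexpression library, library 5, stood above the highest control, library 2, and groups that do not overlap were seen in 3.29% of all tested genes. Among the 38 genes Tfeb was the 1 such case. Means were 8.95 ± 2.25 TPM in the overexpression group (SD, n = 5) and 1.62 ± 0.986 TPM in the control group (SD, n = 6). On the log2 scale the difference was 1.98 ± 0.27 (SE) (95% interval 1.40 to 2.56), for which limma gave an adjusted p of 0.000341. The exact permutation test, two-sided and unadjusted, gave p = 0.00433, which no split of 11 libraries can go below. Any gene whose groups do not overlap gets this p, and the test was run only for Klf5 and genes already called. It therefore adds no independent support. The control values were widely spread, with a coefficient of variation of 60.9%, the highest of the 38 genes, against 25.1% with overexpression. Leaving out single libraries gave ratios of 4.83 (without control library 6) to 6.64 (without control library 2), and no other tested gene overlaps Tfeb in the annotation.

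**Figure D1:**
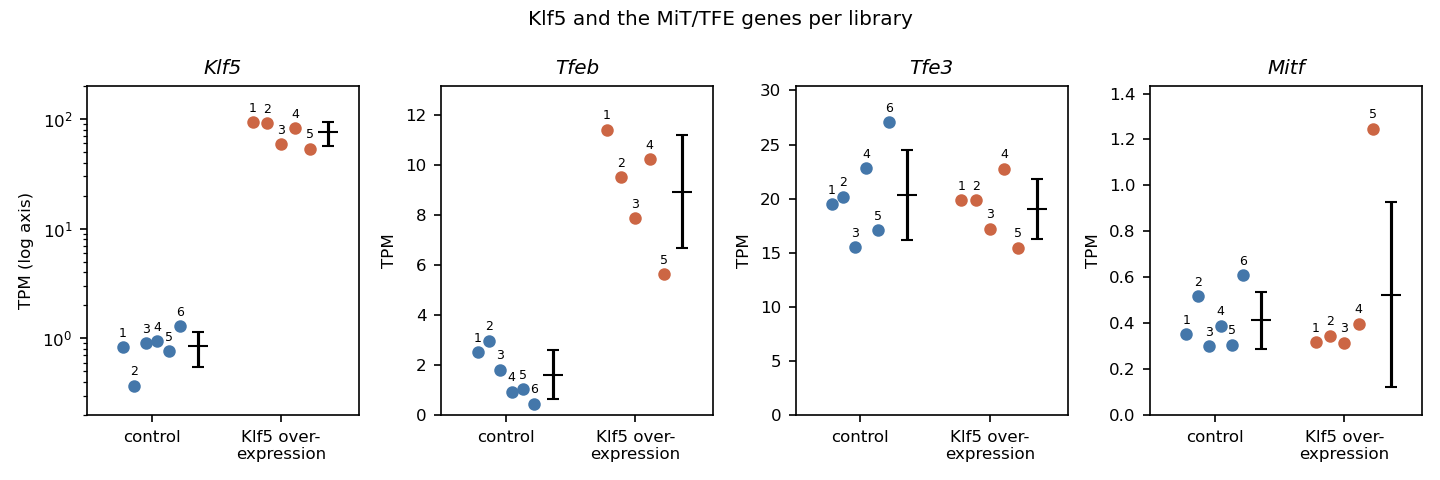
TPM of Klf5 (log axis), and of Tfeb and its relatives Tfe3 and Mitf (linear axes), in each of the 6 control and 5 overexpression libraries, numbered by replicate, with the mean and SD as a black bar. Tfeb is at 5.65 TPM or more in every overexpression library and at 2.97 TPM or less in every control, while Tfe3 and Mitf overlap between the groups.

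No relative of Tfeb was called, and whether they differed from Tfeb in response was not tested. Tfe3, the most abundant of the family, had 19.9, 19.9, 17.2, 22.8 and 15.45 TPM in overexpression libraries 1 to 5, and 15.49 to 27.1 TPM across the 6 control libraries, with a median of 19.8 TPM. Its groups overlapped along most of their range, and the difference on the log2 scale was -0.08 ± 0.16 (SE), with a 95% interval of -0.41 to 0.25 and a limma adjusted p of 0.932. In controls mean Tfe3 was 20.3 TPM beside 1.62 TPM of Tfeb, and with overexpression 19.03 TPM beside 8.95 TPM, so Tfe3 was the more abundant of the pair in both groups. Mitf stood at 0.3 to 0.61 TPM in controls and 0.316 to 1.25 TPM with overexpression, too low to be tested, with its highest value in overexpression library 5. Tfec was listed at 0 in every library.

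Kruppel-like factors are known to bind GC-rich boxes, so the start of Tfeb is shown. The RefSeq table of GRCm38.p6 promoters gives 3 start sites for Tfeb, and the first is the most upstream. The 250 bases before it (chr17:47736787-47737036, plus strand) were 51.6% G or C. Capitals mark the 2 matches to the GC box CCGCCC, both read here on the other strand as GGGCGG, whose first bases lie at -37 and -21 from the start site.
Tfeb: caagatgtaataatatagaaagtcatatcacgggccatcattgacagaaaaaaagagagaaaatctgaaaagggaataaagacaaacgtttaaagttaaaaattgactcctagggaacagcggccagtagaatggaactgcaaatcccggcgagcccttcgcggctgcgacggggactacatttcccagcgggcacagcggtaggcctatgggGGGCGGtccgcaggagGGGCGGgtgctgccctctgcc
Within the 250 bases before them, the 2 later starts each held 1 CCGCCC, and the second also held 1 GGGCGTG, at -79. Over windows of 300 bases, 250 before and 50 after a start, both were searched on either strand. CCGCCC was found in 35.7% of 32851 windows of all genes and GGGCGTG in 8.44%, so CCGCCC is a common match. Counted by gene, CCGCCC was present in 24 of 35 listed genes with a window (68.6%, against 38.2% of all genes). GGGCGTG was present in 6 of them (17.1%, against 9.61%), so neither box is particular to Tfeb in the list. None of the 3 Tfeb windows held CACGTG. The level table is per gene, and which start was used is not given by it.

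The core of the CLEAR element is CACGTG, and it was searched in the same windows because Tfeb is the listed factor known to bind it. Of the 38 genes, 35 had a window in the table. CACGTG was present in windows of 13 of these 35 genes (37.1%), against 8.09% of all 27025 genes in the table. The longer TCACGTG, which contains the core and was searched on both strands, was present in 11 of the 35 (31.4%), against 4.29% of all genes. Sites of these 11 genes are shown so that the shared core and its surroundings can be read, each the TCACGTG match nearest to the start, with the 6 core bases in capitals and the 10 bases on either side, in the direction of the gene.
Ctsa: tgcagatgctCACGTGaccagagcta
Ctsd: gcccgcgtctCACGTGacccgttgag
Lgmn: gaatgtctgtCACGTGgtccatttta
Gaa: tctgtgcgatCACGTGtttgactctg
Gla: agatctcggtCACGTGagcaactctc
Glb1: gcttctgagtCACGTGgcctacagag
Arsa: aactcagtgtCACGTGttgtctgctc
Sgsh: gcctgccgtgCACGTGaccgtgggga
Cln3: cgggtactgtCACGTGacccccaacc
Lamp1: gtgaccacatCACGTGcggaacggag
Mcoln1: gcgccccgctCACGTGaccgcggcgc
Their positions in GRCm38.p6 were Ctsa chr2:164833768-164833793 (plus strand), Ctsd chr7:142387910-142387935 (minus strand), Lgmn chr12:102439126-102439151 (minus strand), Gaa chr11:119267813-119267838 (plus strand), Gla chrX:134601184-134601209 (minus strand), Glb1 chr9:114401020-114401045 (plus strand), Arsa chr15:89477425-89477450 (minus strand), Sgsh chr11:119355524-119355549 (minus strand), Cln3 chr7:126583342-126583367 (minus strand), Lamp1 chr8:13159136-13159161 (plus strand) and Mcoln1 chr8:3500464-3500489 (plus strand). Coordinates cover all 26 bases. Lamp1 held 4 copies of CACGTG and Cln3, Ctsa, Ctsd, Gla and Mcoln1 held 2 each. The 13 genes with CACGTG were Arsa, Cln3, Ctsa, Ctsd, Ctsf, Ctsl, Gaa, Gla, Glb1, Lamp1, Lgmn, Mcoln1 and Sgsh. Their median log2 fold change with Klf5 overexpression was 0.03, with 9 above 0 and 4 below, and that of the 22 matched genes without it was 0.04. None of the 13 was called with the TPM as deposited and all libraries kept, where 3.72% of all tested genes were called. Ctsd, which is among the 13, was called as higher in the rescaled and some other fits given below. Whether these genes follow Tfeb was not tested. The median level of the 13 was 22.7 TPM, as it was in the genes without the match.

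Proteases of the lysosome took a summed 403 ± 54.1 TPM in the overexpression group (SD, n = 5) and 351 ± 24.8 TPM in the control group (SD, n = 6). The sums overlapped, at 327 to 467 TPM with overexpression and 314 to 375 TPM in controls. Of the 9 genes, 7 had log2 fold changes above 0, 2 lay below, and none was called. Over all tested genes 42.4% lay above 0. Ctsd gave the largest share of the sum, with means of 180 TPM with overexpression and 139 TPM in controls. This gene (ENSMUSG00000007891, chromosome 7, 142375911 to 142388038) encodes the aspartic protease cathepsin D. It had 207, 169, 186, 188 and 149.5 TPM in overexpression libraries 1 to 5, and 123 to 156 TPM across the 6 control libraries, with a median of 136 TPM. Overexpression libraries 1 to 4 stood above every control, and library 5 lay among the controls. At 0.37 ± 0.11 (SE) on the log2 scale, Ctsd did not pass (limma adjusted p = 0.089). It did pass when libraries were rescaled, with limma adjusted p of 0.000663, 0.0011 and 0.000874 after trimmed-mean scaling, quantile normalization and removal of ribosomal RNA-like and mitochondrial rows, with array weights (0.0315) and without overexpression library 5 (0.0349). Ctsd overlaps the gene model Gm49369, and reads of this pair may be mixed.

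The cysteine cathepsins are a family of papain-like peptidases. Ctsb, cathepsin B, ranged over 46.5 to 69.1 TPM in controls and 43.5 to 61.4 TPM with overexpression. Ctsl, cathepsin L, ranged over 27.9 to 40.3 TPM in controls and 31.2 to 43.7 TPM with overexpression. Overexpression libraries 2 and 5 fell below every control for Ctsb, and libraries 3 and 4 stood above every control for Ctsl. Ctsc, cathepsin C, which activates serine proteases by trimming dipeptides, ranged over 21.6 to 40.2 TPM in controls and 13.5 to 30.3 TPM with overexpression. Ctsz, a carboxypeptidase, ranged over 16.2 to 25.1 TPM in controls and 18.2 to 43.6 TPM with overexpression, and its 2 highest values were overexpression libraries 1 and 3 (43.6 and 30.7 TPM), while the other 3 fell inside the control range. Ctsf, cathepsin F, had the highest log2 fold change after Tfeb, 0.45 ± 0.23 (SE) (limma adjusted p = 0.46). Its values were 5.31 to 17.1 TPM in controls and 14.4 to 20.5 TPM with overexpression, and control library 1, at 5.31 TPM, lay far below the other controls, of which the lowest had 10.7 TPM. The last 3 peptidases overlapped between the groups. Ctsa, protective protein cathepsin A, which stabilises beta-galactosidase and neuraminidase, ranged over 19.5 to 27.8 TPM in controls and 16.8 to 30.99 TPM with overexpression. Lgmn, legumain, which cuts after asparagine, ranged over 9.69 to 26.3 TPM in controls and 15.47 to 22.3 TPM with overexpression. Tpp1, tripeptidyl peptidase of the CLN2 form of Batten disease, ranged over 15.6 to 23.4 TPM in controls and 17.5 to 29.1 TPM with overexpression, with its highest value in overexpression library 1.

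Glycosidases, which strip sugars from glycoproteins, glycolipids and glycogen, had log2 fold changes between -0.19 and 0.12. None of the 11 was called, and the lowest limma adjusted p was 0.69, for Gaa. Gaa, the glycogen-degrading alpha-glucosidase of Pompe disease, ranged over 26.1 to 43.3 TPM in controls and 29.8 to 37.9 TPM with overexpression. Fuca1, alpha-fucosidase, ranged over 27.1 to 41.4 TPM in controls and 28.4 to 38.9 TPM with overexpression. Hexa, the alpha subunit of the hexosaminidase lost in Tay-Sachs disease, ranged over 23.9 to 35.3 TPM in controls and 20.3 to 31.1 TPM with overexpression. These 3 and Glb1 were the most abundant of the class. Glb1, beta-galactosidase, ranged over 26.6 to 33.6 TPM in controls and 23.6 to 43.97 TPM with overexpression, with its highest value in overexpression library 1. Galc, the galactosylceramidase lost in Krabbe disease, ranged over 14.5 to 26.1 TPM in controls and 11.99 to 23.2 TPM with overexpression. Gusb, beta-glucuronidase, ranged over 12.9 to 14.7 TPM in controls and 11.6 to 17.1 TPM with overexpression. The controls of Gusb were among the most alike of any listed gene, with a coefficient of variation of 4.48%, next to 4.47% for Asah1, while its overexpression libraries 1, 3 and 4 stood above every control and libraries 2 and 5 below every control. Man2b1, the acid alpha-mannosidase, ranged over 9.72 to 15.97 TPM in controls and 11.7 to 14.7 TPM with overexpression. Neu1, a sialidase, ranged over 7.4 to 14.2 TPM in controls and 9.29 to 15.8 TPM with overexpression. The groups of both overlapped. Gla, the alpha-galactosidase of Fabry disease, ranged over 4.27 to 6.74 TPM in controls and 4.1 to 6.97 TPM with overexpression. Manba, beta-mannosidase, ranged over 2.09 to 6.01 TPM in controls and 1.8 to 4.24 TPM with overexpression. Idua, alpha-iduronidase, had the lowest mean level of the 38 genes, at 1.62 to 2.72 TPM in controls and 1.21 to 2.48 TPM with overexpression. None of these 3 was called, and their groups overlapped.

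Sulfatases, which remove sulfate from glycans and sulfatide, were low. Their summed level was 32.5 ± 4.47 TPM (SD, n = 5) against 33.8 ± 3.81 TPM (SD, n = 6). Ids, iduronate sulfatase of Hunter syndrome, gave most of it and ranged over 17.3 to 24.4 TPM in controls and 15.2 to 21.9 TPM with overexpression. None of the 4 was called, and 2 lay above and 2 below 0. Arsa, which acts on sulfatide, ranged over 3.65 to 6.41 TPM in controls and 2.77 to 6.61 TPM with overexpression. Arsb, which acts on dermatan sulfate, ranged over 3.31 to 5.57 TPM in controls and 4.71 to 5.64 TPM with overexpression. Sgsh, a heparan sulfatase, ranged over 2.46 to 5.62 TPM in controls and 2.75 to 6.98 TPM with overexpression, where the 1 high overexpression value was library 4. Neither group of these 3 stood apart from the other.

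**Figure D2:**
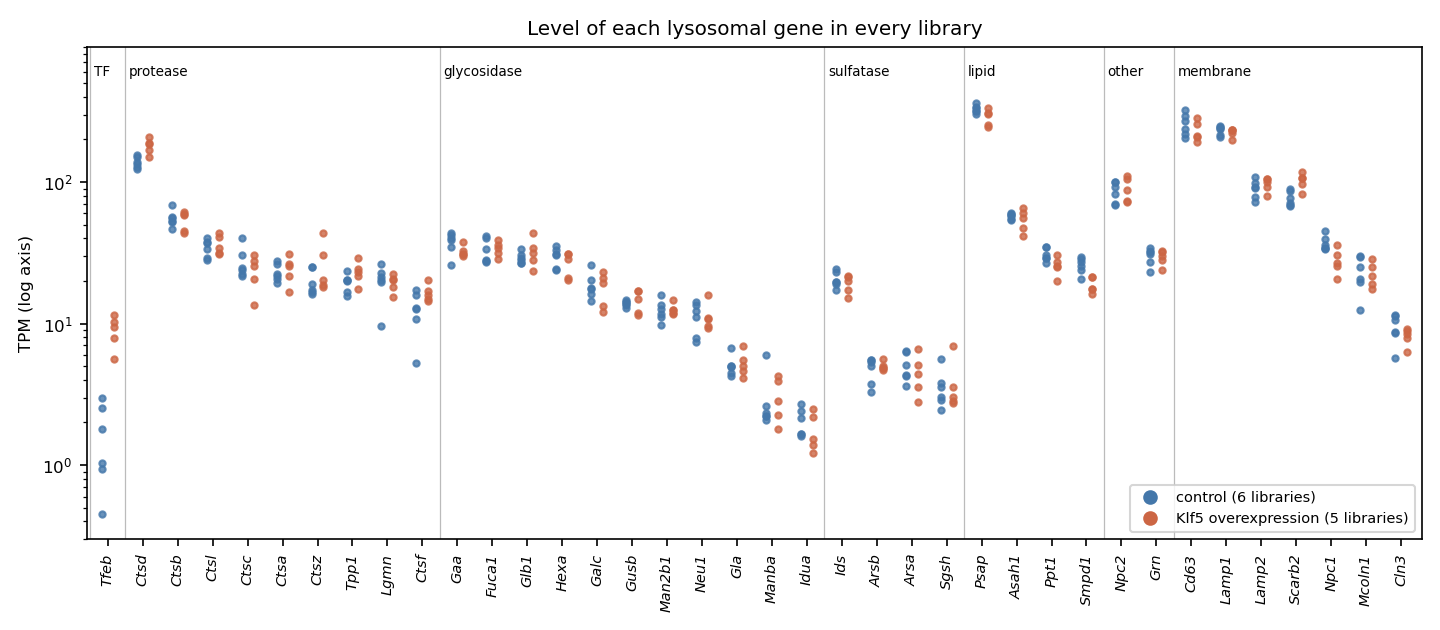
TPM of all 38 lysosomal genes (log axis) in every library, ordered by class and by mean level, with controls in blue and overexpression libraries in orange. Psap, at 243 to 364 TPM, is the most abundant, and Tfeb is the 1 gene whose 2 groups do not overlap.

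The 4 genes of lipid breakdown all lay below 0, without a call, where 42.4% of all tested genes lay above 0. Psap, prosaposin, the precursor of activator proteins for sphingolipid hydrolases, was the most abundant of the 38 genes. It had 333, 255, 308, 304 and 243 TPM in overexpression libraries 1 to 5, and 301 to 364 TPM across the 6 control libraries, with a median of 328 TPM. Overexpression libraries 2 and 5 stood below every control and the other 3 inside the control range. On the log2 scale this was -0.20 ± 0.11 (SE), with a 95% interval of -0.43 to 0.03 (limma adjusted p = 0.509). Smpd1 (ENSMUSG00000037049, chromosome 7, 105554360 to 105558389), the acid sphingomyelinase lost in Niemann-Pick disease types A and B, had the lowest log2 fold change in the list. It had 21.3, 17.5, 21.3, 17.4 and 16.2 TPM in overexpression libraries 1 to 5, and 20.8 to 29.4 TPM across the 6 control libraries, with a median of 26.3 TPM. All 5 overexpression libraries were below the control mean, and only control library 1 reached into their range. At -0.44 ± 0.13 (SE) on the log2 scale, Smpd1 did not pass (limma adjusted p = 0.0916). With the 3 rescalings in the order given for Ctsd, the limma adjusted p were 0.0152, 0.0151 and 0.0191, and with array weights 0.041, all of which passed. Asah1, acid ceramidase, which takes the ceramide made by Smpd1, ranged over 53.9 to 60.1 TPM in controls and 41.3 to 65.7 TPM with overexpression, with overexpression library 1 above every control and libraries 2 and 5 below. Ppt1, palmitoyl-protein thioesterase of infantile Batten disease, ranged over 26.95 to 34.9 TPM in controls and 19.9 to 30.7 TPM with overexpression, with all 5 overexpression values below the control mean (log2 fold change -0.26 ± 0.13 (SE), limma adjusted p = 0.455).

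Membrane proteins gave the highest levels after Psap. Cd63, a tetraspanin of late endosomes, lysosomes and secreted vesicles, had 284, 193, 212, 258 and 209.6 TPM in overexpression libraries 1 to 5, and 205 to 323 TPM across the 6 control libraries, with a median of 253 TPM. Library 2 was below every control and the groups otherwise overlapped, with a log2 fold change of -0.15 ± 0.14 (SE) (limma adjusted p = 0.796). Lamp1 had 235, 222, 232, 232 and 198 TPM in overexpression libraries 1 to 5, and 207 to 249 TPM across the 6 control libraries, with a median of 239 TPM. Library 5 was below every control and the other 4 within the control range. On the log2 scale Lamp1 differed by -0.05 ± 0.10 (SE), with the smallest standard error in the list and a 95% interval of -0.26 to 0.16 (limma adjusted p = 0.93). Lamp2, which also takes part in chaperone-mediated autophagy, had 104, 101, 91.7, 105 and 80.1 TPM in overexpression libraries 1 to 5, and 72.2 to 109 TPM across the 6 control libraries, with a median of 91.01 TPM. All 5 lay inside the control range, and its log2 fold change of 0.10 ± 0.12 (SE) had a 95% interval of -0.16 to 0.37 (limma adjusted p = 0.866). Lamp1 overlaps Grtp1 in the annotation.

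Scarb2 (ENSMUSG00000029426, chromosome 5, 92441314 to 92506833), also called LIMP-2, is the receptor that carries beta-glucocerebrosidase to the lysosome. It had 108, 97.1, 119, 106 and 82.98 TPM in overexpression libraries 1 to 5, and 67.4 to 89.1 TPM across the 6 control libraries, with a median of 74.4 TPM. Libraries 1 to 4 exceeded every control and library 5 did not. At 0.41 ± 0.12 (SE) on the log2 scale, Scarb2 did not pass (limma adjusted p = 0.0775). It passed with the 3 rescalings (limma adjusted p 0.00132, 0.00263 and 0.0022), with array weights (0.0188) and without overexpression library 5 (0.0287).

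Npc1 and Npc2 hand cholesterol from the lysosomal lumen to its membrane, NPC2 as the soluble carrier and NPC1 as the membrane protein. Npc1 (ENSMUSG00000024413, chromosome 18, 12189692 to 12236400) had 36.02, 25.6, 30.3, 26.6 and 20.6 TPM in overexpression libraries 1 to 5, and 33.9 to 45.1 TPM across the 6 control libraries, with a median of 35.3 TPM. Overexpression library 1 lay among the controls and the other 4 below all of them. At -0.42 ± 0.14 (SE) on the log2 scale, Npc1 did not pass (limma adjusted p = 0.154), but the adjusted p were 0.0293, 0.0283 and 0.0368 with the 3 rescalings. Npc1 overlaps Rmc1. Npc2 ranged over 68.6 to 100.5 TPM in controls and 72.8 to 111 TPM with overexpression, with overlapping groups and a log2 fold change of 0.06 ± 0.15 (SE) (limma adjusted p = 0.952). Whether Npc1 and Npc2 differed from each other in their response was not tested.

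The remaining genes of the list overlapped between the groups. Mcoln1, the calcium channel TRPML1, ranged over 12.4 to 29.9 TPM in controls and 17.6 to 28.7 TPM with overexpression. Cln3, the membrane protein of juvenile Batten disease, ranged over 5.74 to 11.5 TPM in controls and 6.3 to 9.19 TPM with overexpression. Grn, progranulin, a secreted and lysosomal protein, ranged over 23.1 to 34.3 TPM in controls and 23.9 to 32.4 TPM with overexpression. None of these 3 was called.

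**Figure D3:**
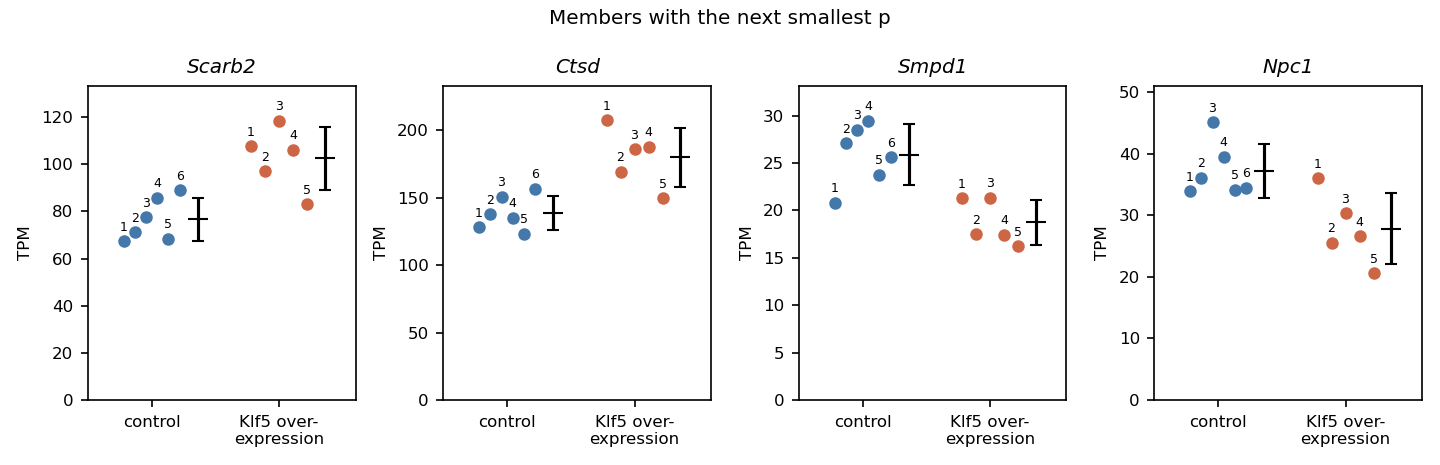
TPM (linear axes from 0) of Scarb2, Ctsd, Smpd1 and Npc1 in each library, numbered by replicate, with the mean and SD as a black bar. Scarb2 and Ctsd are higher in overexpression libraries 1 to 4 than in any control, Npc1 is lower in libraries 2 to 5 than in any control, and Smpd1 overlaps at control library 1; none of the 4 passed on the TPM as deposited with all libraries weighted alike.

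Taking these 4 genes with Tfeb, 5 of 38 (13.2%) had an unadjusted limma p under 0.05, against 12.6% of all tested genes. With trimmed-mean scaling, quantile normalization and removal of ribosomal RNA-like and mitochondrial rows, 5 of the 38 genes (13.2%) were called in each fit. Over all tested genes the shares were 5.41%, 5.4% and 5.25% (3.21%, 3.11% and 3.17% as higher, 2.21%, 2.3% and 2.08% as lower). The called listed genes were Tfeb, Ctsd and Scarb2 as higher and Smpd1 and Npc1 as lower in each of the 3 fits. With array weights, which count libraries that fit poorly for less, 4 of the 38 were called, Npc1 being the one left out, against 4.69% of all tested genes (2.91% as higher and 1.79% as lower). For the 37 genes without Tfeb the 95% interval lay within 1 of 0 on the log2 scale in all 37 and within 0.5 in 22. Standard errors of the 37 log2 fold changes were 0.10 to 0.26.

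**Figure D4:**
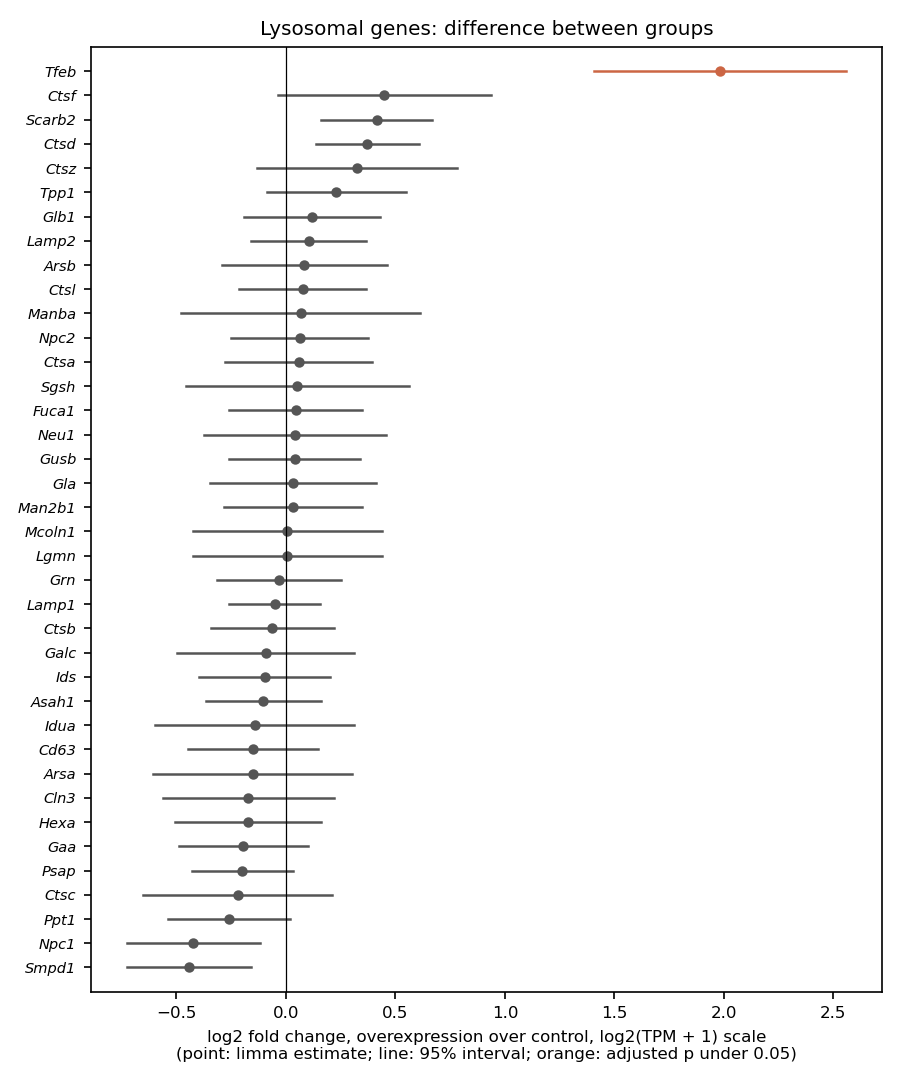
Log2 fold change of each of the 38 genes, overexpression over control, on the log2(TPM + 1) scale, with the limma estimate as a point and its 95% interval as a line. Tfeb, in orange, is at 1.98 and was called; the other 37 lie between -0.44 and 0.45.

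Summed, the 38 genes stood at 1854 ± 225 TPM in the overexpression group (SD, n = 5) and 1867 ± 146 TPM in the control group (SD, n = 6). As a share of the listed rows this was 0.212 to 0.259% and 0.202 to 0.249%, with means of 0.236 ± 0.0188% and 0.225 ± 0.0161% (SD). The order of the group means therefore turns with the scale, and on both scales the groups overlapped. Single libraries often held the extreme values. Within the overexpression group, library 1 gave the highest value for 23 of the 38 genes and library 5 the lowest for 25. Within controls, library 6 gave the highest value for 17 and library 1 the lowest for 16. Overexpression library 5 is the library with the lowest listed sum, and its part in these values was not tested beyond the fits without it. Levels spanned 4 genes above 100 TPM (Psap, Cd63, Lamp1 and Ctsd), 26 from 10 to 100 TPM and 8 below 10 TPM. Cd63 and Lamp1, which are neighbours in that order, overlapped in range (246 and 228 TPM over all libraries). The median coefficient of variation among controls was 16.7% for the 38 genes and 20.3% for all tested genes.

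Further genes of the lysosome and of related processes, among them autophagy, mTORC1 control and cystatins, were followed as 7 lists with 110 genes. Of these genes, 101 were tested. The lists too were chosen with earlier results of these data known. Of the tested genes, 2 were called, both higher, where 3.72% of all tested genes were called in either direction and 2.29% as higher. The lists thus hold no larger share of calls than all genes do. All 18 subunits and accessory proteins of the V-ATPase, the proton pump that acidifies the lysosome, were tested and none was called, with log2 fold changes of -0.33 to 0.21. The smallest p were those of Atp6v0e2 (108 ± 12.7 TPM in the overexpression group (SD, n = 5) and 124 ± 8.99 TPM in the control group (SD, n = 6), limma adjusted p = 0.472) and Atp6v0b (log2 fold change 0.21 ± 0.14 (SE), limma adjusted p = 0.65). Other hydrolases and activators gave 0 called of 18 tested, with a median of -0.06. Galns, a sulfatase of keratan sulfate, had a log2 fold change of 0.40 ± 0.25 (SE) and Man2b2, a mannosidase, of -0.26 ± 0.20 (SE) (limma adjusted p = 0.618 and 0.726). Other membrane proteins gave 0 called of 17 tested. Of these 14 lay below 0, with a median of -0.07, where 42.4% of all tested genes lay above 0. Laptm4b had a log2 fold change of -0.27 ± 0.13 (SE) and Pip4p1 of -0.18 ± 0.16 (SE) (limma adjusted p = 0.404 and 0.792). The log2 fold change of Galns was 0.18 without overexpression library 4, which had 6.79 TPM against 1.84 to 3.69 TPM in the other 4. The sorting genes, which bring enzymes to the lysosome and recycle their receptors, gave 0 called of 12. Igf2r, a mannose 6-phosphate receptor, varied within both groups, at 2.66 to 10.4 TPM in controls and 2.13 to 10.96 TPM with overexpression. Its log2 fold change was 0.62 ± 0.37 (SE) (limma adjusted p = 0.579), and 0.97 without overexpression library 5 (limma adjusted p = 0.13). Vps26a of the retromer had a log2 fold change of 0.18 ± 0.13 (SE) (limma adjusted p = 0.669).

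Among 17 tested genes of the Tfeb family and the mTORC1 machinery that controls it, 1 was called. Lamtor5 (ENSMUSG00000087260, chromosome 3, 107278858 to 107284082), a subunit of the Ragulator complex that anchors Rag GTPases and mTORC1 at the lysosome, rose. It had 164, 100.3, 141, 155 and 93.9 TPM in overexpression libraries 1 to 5, and 52.5 to 87.2 TPM across the 6 control libraries, with a median of 72.9 TPM. The groups did not overlap, although library 5 stood close to the highest control. Its log2 fold change was 0.87 ± 0.17 (SE), a 1.86-fold ratio of means (limma adjusted p = 0.00724, unadjusted two-sided exact permutation p = 0.00433). Testing all genes, with no filter, took this call away (adjusted p = 0.0507). The 4 other Lamtor genes, which encode the rest of Ragulator, were not called, and Lamtor1, with the next smallest p of the list, had a log2 fold change in the other direction, -0.29 ± 0.18 (SE), at 54.5 to 115 TPM in controls and 52.9 to 93.9 TPM with overexpression (limma adjusted p = 0.592). The difference between Lamtor5 and Lamtor1 was not tested.

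No autophagy gene was called among 17 tested. Gabarapl1, an ATG8 family protein of the autophagosome membrane, had 46.02 ± 6.98 TPM in the overexpression group (SD, n = 5) and 58.1 ± 4.53 TPM in the control group (SD, n = 6) (log2 fold change -0.34 ± 0.12 (SE), limma adjusted p = 0.171). It passed with the 3 rescalings, at adjusted p of 0.0213, 0.016 and 0.0153. Atg5, part of the ATG8 lipid-coupling machinery, had a log2 fold change of -0.25 ± 0.13 (SE) (limma adjusted p = 0.486).

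Cystatins are protein inhibitors of the cysteine cathepsins. Of 5 cystatin genes 2 were expressed enough to be tested, and 1 was called. Cstb (ENSMUSG00000005054, chromosome 10, 78425669 to 78427622), the intracellular cystatin B lost in a progressive myoclonus epilepsy, rose. It had 48.7, 34.6, 43.5, 39.1 and 29.8 TPM in overexpression libraries 1 to 5, and 21.8 to 32.6 TPM across the 6 control libraries, with a median of 21.9 TPM. Control library 5, at 32.6 TPM, was the 1 control above the lowest overexpression library. Cstb had a log2 fold change of 0.67 ± 0.15 (SE), a 1.62-fold ratio of means (limma adjusted p = 0.0181, unadjusted two-sided exact permutation p = 0.00866). Testing all genes, with no filter, took this call away (adjusted p = 0.0527), as did a fit without overexpression library 3 (0.0555). Cst3, the secreted cystatin C and the more abundant of the pair, had 341 ± 55.4 TPM in the overexpression group (SD, n = 5) and 285 ± 40.3 TPM in the control group (SD, n = 6), with all 5 overexpression libraries above the control mean (log2 fold change 0.26 ± 0.13 (SE), limma adjusted p = 0.465).

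**Figure D5:**
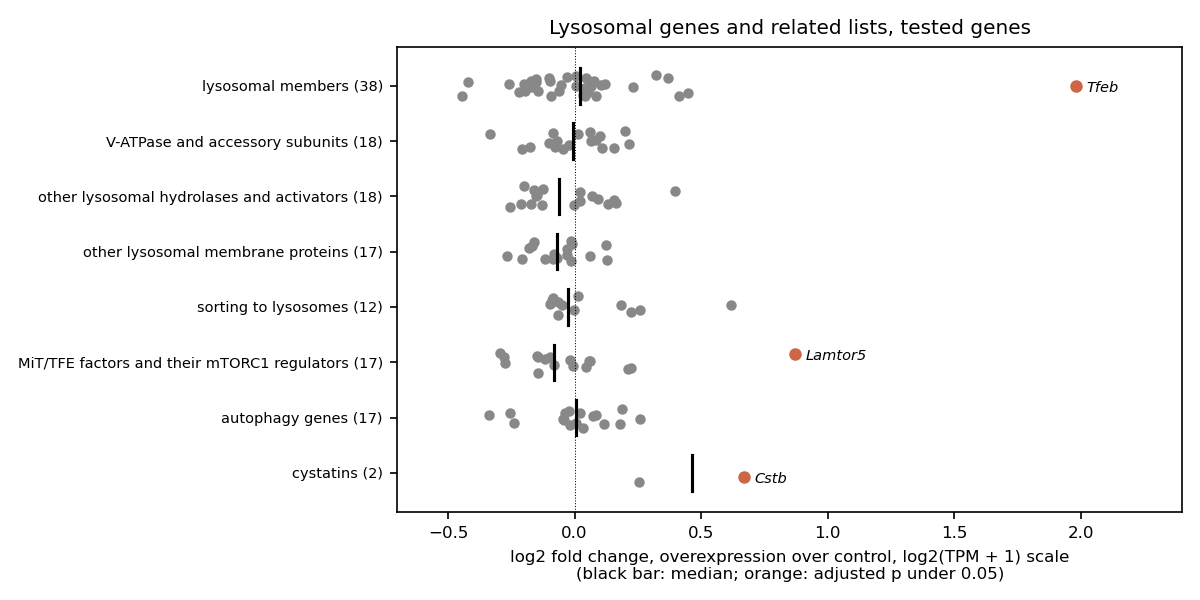
Log2 fold change of the tested genes of each list, overexpression over control, with a black bar at the list's median and called genes in orange. Tfeb (1.98), Lamtor5 (0.87) and Cstb (0.67) are the 3 called genes.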

How the data were processed

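RNA-seq libraries of 5 overexpression and 6 control neurosphere cultures were read from 1 deposited table of TPM values, 1 column per library. The authors made the TPM before deposit; the submitters' processing notes name HISAT2, StringTie, HTSeq and DESeq2 and the build GRCm38.p5, without versions or roles. Depth, annotation release, strand setting and which of 2 library kits made which library were not given in the sources used here. Of the 38 genes, 11 overlap another tested gene and may share its reads. The labels count 1 embryo per library and say nothing of litters, which p-values cannot account for.

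Genes that reached 1 TPM in 5 or more libraries (13549) were analysed as log2(TPM + 1), pseudocount 1, with limma 3.58.1 (R 4.3.3), a variance trend, two-sided, with Benjamini-Hochberg adjustment at 0.05. Fold changes on this scale understate those of genes near 1 TPM. Exact permutation tests used Python 3.11.15 and scipy 1.17.1, were run only for Klf5, Tfeb, Lamtor5 and Cstb, and were not adjusted. The test was also run on simulated data with independent noise per gene and no shifts between libraries. Such data cannot stand for the differences between these libraries. Symbols came from a list of gene names (53255 of 53453 rows matched), coordinates from GENCODE M21 (GRCm38), promoters from RefSeq (GRCm38.p6). Values per library are given for called listed genes, the 4 uncalled with the smallest p, Lamp1, Lamp2 and the 3 most abundant; each further list is shown by its 2 genes of smallest p plus at most 2 more called. Tfe3, Mitf and Tfec were named after their values were seen. The listed genes and lists were chosen with earlier results of these data known. Alternatives were other pseudocounts, filters, scalings, weights, a block and leaving out each library.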

Additional observations from a re-analysis of the deposited data

Results flagged for a closer look

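In all, 7 values stood apart from the rest of their group by more than Dixon's 95% limit, of 104 groups checked, where chance gives about 1 in 20. Manba in control library 2 was at 6.01 TPM, with the next control at 2.62 TPM. Gla in control library 1 was at 6.74 TPM, with the next at 5.05 TPM. Cstb in control library 5 was at 32.6 TPM, with the next at 24.96 TPM. Overexpression library 4 was highest in 3 of the cases, at 15.8 TPM of Neu1 (next 11.01 TPM), 14.7 TPM of Man2b1 (next 12.5 TPM) and 6.98 TPM of Sgsh (next 3.54 TPM). Pip4p1 in overexpression library 1 was at 28.6 TPM, with the next at 20.02 TPM.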

How the results depend on the processing

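Tfeb was called as higher in all 20 alternatives, with log2 fold changes of 1.83 to 2.59 and limma adjusted p of 0.000185 to 0.00745. Listed genes called as higher numbered 1 in the main test, 3 with trimmed-mean scaling, quantile normalization, removal of ribosomal RNA-like and mitochondrial rows and array weights, and 1 to 3 when each library was left out (3 without overexpression library 5). Those called as lower numbered 0 in the main test, 2 with each of the 3 rescalings, 1 with array weights and 0 when each library was left out. Over all genes, 310 were higher and 194 lower. These were 254 and 95 without a filter, 434 and 299 with trimmed-mean scaling, 421 and 311 with quantile normalization, and 461 and 303 without ribosomal RNA-like and mitochondrial rows. They were 206 to 313 and 117 to 212 with each library left out, lowest for higher genes without overexpression library 4 and for lower genes without overexpression library 2. The lower count was also 125 without control library 3, 129 without control library 6 and 129 without overexpression library 5. Leaving out a library lowers the number of libraries, and dropping the filter raises the number of genes tested. The cause of these changes in the counts was not tested. Direction was followed for 9 of the 38 genes (Tfeb, Scarb2, Ctsd, Smpd1, Npc1, Lamp1, Lamp2, Psap and Cd63) and for the 14 genes named from the further lists, and these kept it in all alternatives that tested them. Of the 38 genes, 21 lay above 0 in the main test and 14 (without overexpression library 4) to 23 (without overexpression library 5) when 1 library was left out, so other listed genes changed sign. With the replicate number as a block, fitted on 10 libraries, 288 genes were higher and 138 lower, against 277 and 129 without the block, and Tfeb alone of the 38 was called in both. The Cstb call was lost with the block (adjusted p = 0.0965). Deviations of same-numbered libraries correlated at 0.304 for number 1 and at -0.0398 to 0.0638 for the others. Such correlations cannot show whether same-numbered libraries shared a litter or a batch, which the labels do not give. TPM hold no depth, which limits genes near 1 TPM such as Idua and the control values of Tfeb.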

Other observations

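Control library 1 held the lowest control value of Ctsf, Lgmn, Mcoln1 and Cln3, chosen after their values were seen. These were 5.31, 9.69, 12.4 and 5.74 TPM, against group medians of 12.9, 20.8, 22.9 and 9.72 TPM. The same library held the highest control value of Ctsc, at 40.2 TPM against a median of 24.4 TPM.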
